A study of Mus musculus with 4 samples.

Results

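Among GFP+ cells sorted from mouse dorsal root ganglia (DRGs), 78 cells carried transcripts that mark macrophages and related immune cells. Some of them held these beside much neuronal or glial RNA. They were chosen by their own counts. A cell was a member when at least 1 unique molecular identifier (UMI, a tag that counts each captured RNA molecule once) was found for at least 3 of 7 genes, *C1qa*, *C1qb*, *C1qc*, *Tyrobp*, *Fcer1g*, *Ptprc*, and *Lyz2*, in a cell with at least 300 genes, at most 10% mitochondrial UMIs, and fewer than 20000 UMIs. The 4 scRNA-seq libraries held 195684124 to 237069156 UMIs in 23691 cells, 6004 cells met the limits on genes, mitochondrial UMIs, and total UMIs, and 78 of these met the rule. The submitters label every sample as neurons.

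All mice were of the PirtEGFPf strain on a C57BL/6 background and 7-8 weeks old. By the study's methods they were heterozygous, with farnesylated EGFP in place of the open reading frame of 1 copy of *Pirt* and under the *Pirt* promoter, so every group, sham included, had 1 functional copy. Male-CCI and Female-CCI mice had both sciatic nerves loosely ligated, a model called chronic constriction injury (CCI), Male-Sham and Female-Sham mice had the surgery without ligation, and L4-5 DRGs were taken at day 7. Each library pooled 20 DRGs of 5 mice, and male and female littermates had the same surgery, so litter and surgery cannot be told apart and no value covers the spread between mice. Series of 4 values below give sham males, then sham females, then males and females with CCI.

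Macrophages reside in the DRG around the cell bodies of sensory neurons, close to the satellite glial cells (SGCs) that wrap each neuron, and they are known to increase in number and change state after injury of the peripheral nerve. They clear debris, present antigen on MHC molecules, and release cytokines and chemokines that act on neurons. C1qa, C1qb, and C1qc are the chains of complement C1q, Tyrobp and Fcer1g are adaptor proteins that carry signals of immune receptors, Ptprc is the pan-leukocyte surface protein CD45, and Lyz2 is the lysozyme of macrophages and neutrophils.

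Most members held 6 or 7 of the marker genes, and some lay close to the limit of the rule. Of the 6004 cells, 5835 had a UMI of none of the 7 genes, 86 of 1 gene, and 5 of 2 genes, whereas 9 had 3, 5 had 4, 3 had 5, 32 had 6, and all 7 were found in 29. Just outside the rule, the 5 cells with 2 genes had 2 marker UMIs each, and the 86 cells with 1 gene had 1 to 9. Just inside it, the 9 cells with 3 genes had 3 to 19 marker UMIs with a median of 5, and the 29 cells with all 7 genes had a median of 118. By the UMI limit, 76 deeper cells with at least 3 marker genes were left out (14, 13, 22, and 27), and every one of them held *Tubb3*. Pairs of libraries had 215 to 513 cell barcodes in common, and none of these was the barcode of a member. All these counts come from the genes of the rule and describe the choice.

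The 7 genes differed in how many members carried them. *Fcer1g* was found in 73 members, *C1qa* and *C1qc* in 71 each, *Lyz2* in 70, *C1qb* and *Tyrobp* in 69 each, and *Ptprc* in 34. *C1qa* had a median of 11, 4.5, 27.5, and 12 UMIs per member and at most 94. *Lyz2* had a median of 26.5, 11.5, 19.5, and 9 UMIs, and *Ptprc*, the least abundant of the 7, never had more than 3. In the other cells under the filter the rule itself allows at most 2 of these genes, so low shares there follow from the choice. *C1qa* was found in 0.254% of 788 SGC-like cells and in 0.0816% of 4900 neurons of the same filter. Median depths were 4184 UMIs in SGC-like cells and 3153 in neurons, against 3008.5 in members. By library the neurons had a median of 4792.5, 8341.5, 7534, and 835 UMIs. *Ptprc* was found in 0 of either population, which allows shares of up to 0.381% and 0.0612%. *Fcer1g* reached 0.878% of neurons. In 15283 cells over the UMI limit with at most 2 of the 7 genes, at a median depth of 46165 UMIs, *C1qb* was found in 2.95% and *Lyz2* in 1.41%. Here SGC-like cells are non-members with at least 0.5% of UMIs from *Fabp7* and at least 3 of 9 satellite glia genes, and neurons are non-members below that *Fabp7* level with at least 3 of 6 pan-neuronal genes.

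The genes of the rule lie at 5 separate places of the genome (GRCm38, GENCODE M21), with *C1qa* (chr4:136895917-136898803), *C1qc* (chr4:136889804-136893065), and *C1qb* (chr4:136880129-136886187) side by side on the minus strand. Because these cells were picked by transcripts of the myeloid lineage, the promoters of the rule genes were searched for AGGAAGT on both strands, the purine-rich core bound by PU.1 (*Spi1*) and other ETS factors, a motif chosen with the members known. RefSeq promoters (GRCm38.p6, 250 bases before to 50 bases after the start) were at hand for 5 of the 7 genes. The stretches are shown because they hold that core upstream of the start, in capitals, written along the gene's strand, where ACTTCCT is the core on the opposite strand.
C1qb, chr4:136886230-136886270: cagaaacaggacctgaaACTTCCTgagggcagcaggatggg
C1qc, chr4:136893086-136893126: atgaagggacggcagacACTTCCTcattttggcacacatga
Lyz2, chr10:117282349-117282389: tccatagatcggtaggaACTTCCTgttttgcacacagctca
Ptprc, chr1:138175395-138175435: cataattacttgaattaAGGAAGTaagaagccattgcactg
All 4 genes are on the minus strand of the genome. The capitals begin 53 bases upstream of the start in *C1qb*, 195 in *C1qc*, 100 in *Lyz2*, and 113 in *Ptprc*, where a further match lies at 58 and positions are counted from the first start listed. *Fcer1g* had no match in this window. Of all 32851 promoters of that length, 9.35% held the core, and a match is a description of the sequence.

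**Figure D1:**
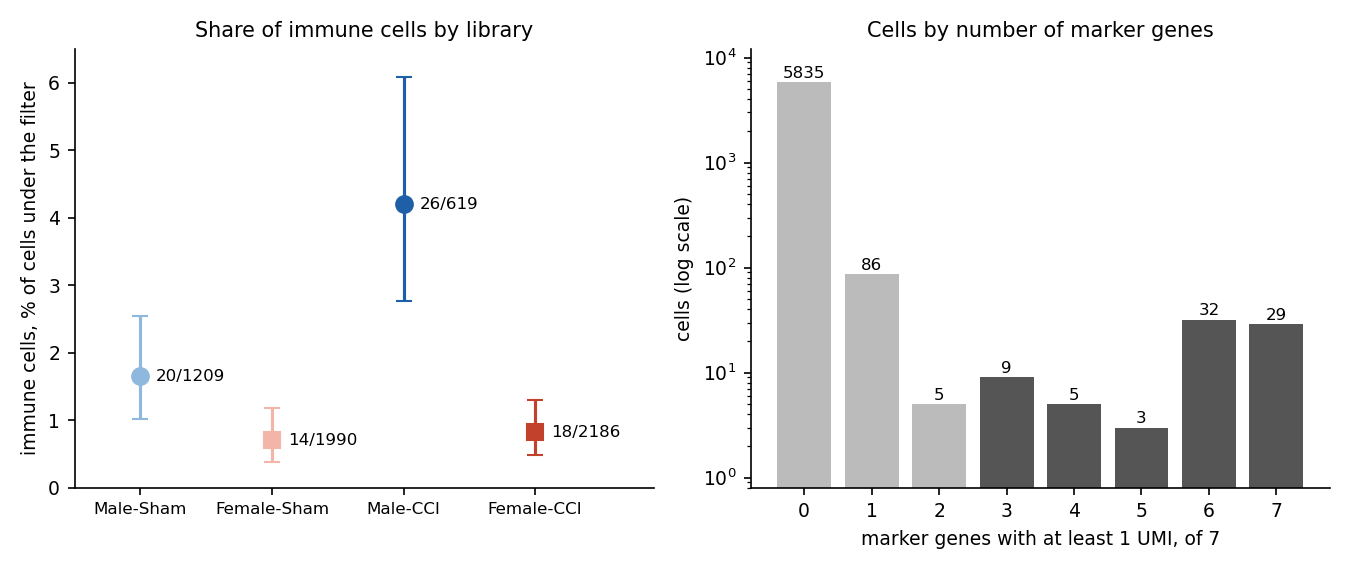
Left, members as a percentage of the cells under the same filter in each library, with exact 95% binomial intervals (counting error only) and the number of members over cells, circles for male and squares for female libraries. Right, number of cells (log scale) by how many of the 7 marker genes had at least 1 UMI, where the members (dark bars) peak at 6 and 7 genes and 5835 cells have none.

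Genes that the rule did not use marked most members as macrophages. At least 3 of 16 macrophage identity genes were found in 74 of 78 members, and all 16 in some. The list includes *Csf1r*, the receptor of the macrophage growth factor CSF1, and *Aif1*, the cytoskeletal protein IBA1. Shares of SGC-like cells and neurons with at least 3 of these genes were not counted. The 74 include mixed cells, such as a Female-Sham member with 5 of these genes but 3 marker UMIs, 17 *Tubb3* UMIs, and 222 *Fabp7* UMIs. These 16 genes made up a median of 0.928%, 0.521%, 1.58%, and 1.1% of a member's UMIs. Summed over the members of a library they stood at 4349, 2936, 15168, and 9547 CPM (UMIs per 1000000 UMIs of the sum), against 386 to 517 CPM in SGC-like cells and 230 to 354 CPM in neurons. The lowest library sum of members was therefore above every library sum of the other cells. Single members ranged from 0% to 2.42% of UMIs for these genes, and 76 of 78 had at least 1 of them.

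Markers of other leukocytes were mostly single genes in a member. At least 1 of 9 B cell genes was found in 40 members and at least 3 in 1, and those found were mostly *Ighm* (26 members) and *Ebf1* (10 members), the latter also a transcript of neurons. At least 1 of 11 neutrophil genes was found in 9 members, of 12 T and NK cell genes in 3, and of 7 mast cell genes in 11, and at least 3 of these lists in 0, 1, and 0. The neutrophil genes *S100a8*, *S100a9*, and *Ly6g*, the T cell genes *Cd3e*, *Cd3d*, *Cd3g*, and *Trac*, the B cell genes *Ms4a1* and *Igkc*, and all 5 erythrocyte genes had 0 UMIs in the 78 members, which allows up to 3.85% of cells with a UMI of each. At least 1 of 11 monocyte genes was found in 68 members, at least 2 in 24, and at least 3 in 4, and the list includes *S100a6*, also a transcript of neurons. *Ly6c2* of inflammatory monocytes was found in 1 member and *Ccr2*, the receptor that draws monocytes into tissue, in 6. *Mrc1*, the mannose receptor of resident macrophages, was found in 18, 9, 19, and 10 members. At least 3 of 12 resident macrophage genes were found in 56 members, and at least 3 of 7 endothelial genes in 1.

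A few members, named here after their values were seen, differed from the rest. A Female-CCI member of 1249 UMIs had 4 of 12 T and NK cell genes (*Trbc1*, *Nkg7*, *Gzma*, *Klrd1*) and no C1q UMI. In 3 members, at least 3 of 9 dendritic cell genes were found, without a C1q UMI. In each of them 1 of those genes was *Ccr7*, the receptor that guides dendritic cells to lymph nodes. Of the 3 members, 1 from Male-CCI and 1 from Female-CCI carried *Clec9a* and *Xcr1*, genes of cross-presenting dendritic cells. The third, from Male-Sham, carried only *Flt3* and *Cd209a* of the list beside *Ccr7*. A Male-CCI member of 11385 UMIs had all 10 cell cycle genes, *Mki67* and *Top2a* included, and 202 C1q UMIs. These 5 are single cells, and no difference between groups can be read from them.

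Transcripts of glia and neurons were found in most members. *Apoe*, a lipid carrier that SGCs and macrophages both make, was found in 77 of 78 members. *Fabp7*, a fatty acid binding protein that marks SGCs, was found in 32 members (10, 8, 8, and 6), all of which had *Apoe* too. *Tubb3*, the neuronal tubulin, was found in 48 members (11, 9, 15, and 13). *Fabp7* and *Tubb3* were both found in 21 members and neither in 19 (5, 3, 7, and 4).

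The level of these transcripts varied between libraries. *Fabp7* made up at least 0.5% of UMIs, the limit for SGC-like cells, in 6, 4, 0, and 1 members, and in no Male-CCI member did it pass 0.212%. In SGC-like cells the summed *Fabp7* level was 15553, 14266, 14870, and 14592 CPM, and in members 5798, 5303, 107, and 1909 CPM. *Apoe* in members was at 62487, 31635, 51003, and 56720 CPM, against 99059, 94709, 91844, and 87757 CPM in SGC-like cells. *Fabp7* in Male-CCI members was thus under the 361 to 584 CPM of neurons, whereas *Apoe* stayed far above the 1720 to 2813 CPM of neurons.

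*Tubb3* in members was at 631, 1332, 243, and 1030 CPM, against 297 to 594 CPM in SGC-like cells and 2079 to 3512 CPM in neurons, so that only Male-CCI members were below the SGC-like cells. *Pirt*, whose promoter drives the sorting label, was found in 3, 6, 4, and 2 members. In neurons *Pirt* stood at 480 to 751 CPM and in members at 207, 698, 58.3, and 37.4 CPM. The part of neuronal and glial RNA in the results below was not tested, and its values stand beside them.

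Deep members held much of it. In Male-Sham 2 members with at least 10000 UMIs gave 29.5% of the summed UMIs and 51.5% of the UMIs of the neuron list, and in Female-Sham 3 such members gave 57.7% and 83.1%. In Male-CCI 2 such members gave 22.6% and 7.38%, and Female-CCI had none. The 3 deep members of Female-Sham held 18, 27, and 3 marker UMIs, and 23, 44, and 17 *Tubb3* UMIs. The 2 of Male-Sham held 76 and 52 marker UMIs, and 0 and 30 *Tubb3* UMIs. The 2 of Male-CCI held 374 and 111 marker UMIs, and 0 and 2 *Tubb3* UMIs. The members had a median of 2876.5, 3531.5, 3396.5, and 2436 UMIs, and the sums tested below held 101413, 77320, 102915, and 53420 UMIs.

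**Figure D2:**
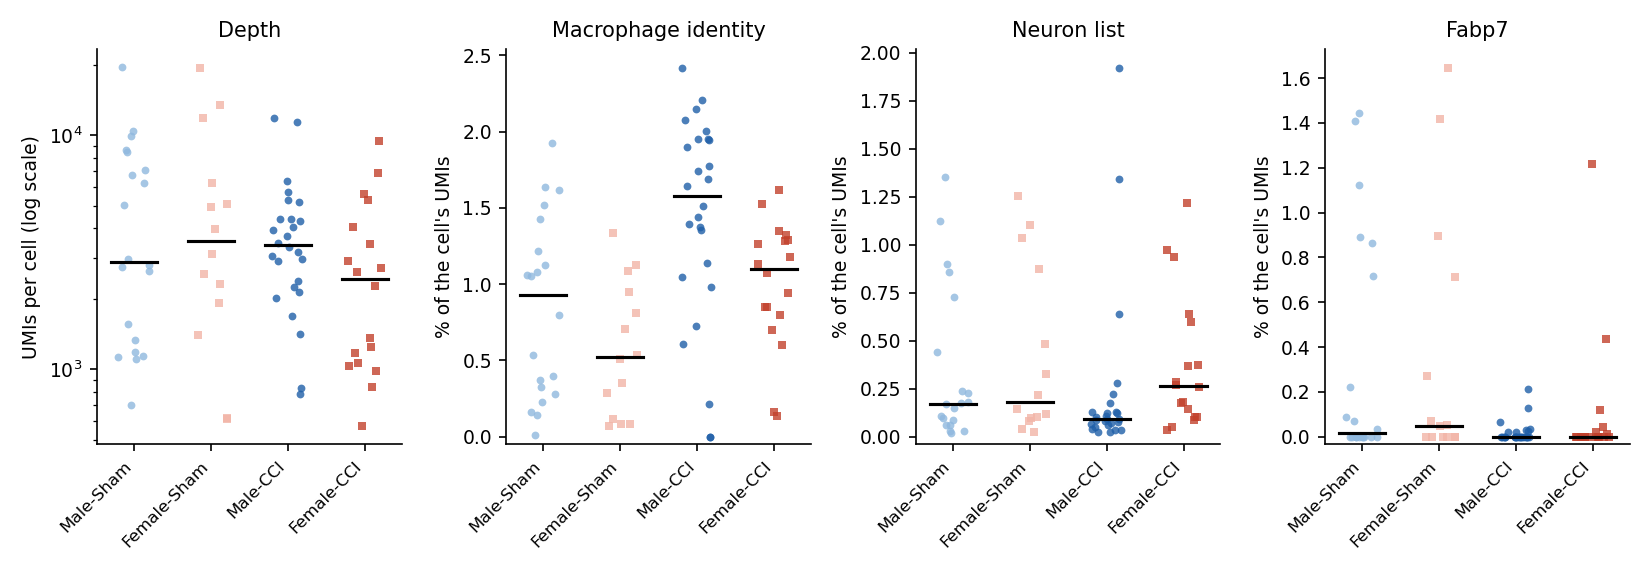
Each point is 1 member, by library (circles male, squares female), and the black line is the median of the library. From left to right, UMIs per cell on a log scale, the 16 macrophage identity genes, the 9 neuron genes, and *Fabp7*, the last 3 as a percentage of the cell's UMIs. Macrophage identity medians are 0.928%, 0.521%, 1.58%, and 1.1%, and no Male-CCI member exceeds 0.212% of *Fabp7*.

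The first comparison asked whether immune cells were a larger share of the sorted cells after nerve injury. Members were 20 of 1209 cells in Male-Sham (1.65%, exact 95% interval 1.01 to 2.54), 14 of 1990 in Female-Sham (0.704%, 0.385 to 1.18), 26 of 619 in Male-CCI (4.20%, 2.76 to 6.09), and 18 of 2186 in Female-CCI (0.823%, 0.489 to 1.30). Intervals cover counting error only. The Male-CCI share was above all others, and the Female-CCI share lay between those of the sham libraries. The mean of CCI exceeded that of sham by 1.33 percentage points (exact permutation test over libraries, two-sided, p = 0.667), and 2 against 2 libraries cannot give a p below 0.333.

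The size of this difference rested on Male-CCI, and without that library CCI lay below sham by 0.355 points in place of above it. The cells under the filter had a median of 4513, 5883.5, 5585, and 866 UMIs, so Female-CCI was the shallowest. With every cell thinned to 1000 UMIs and shallower cells left out, members were 18 of 870, 8 of 1577, 23 of 503, and 12 of 999 cells (2.07%, 0.507%, 4.57%, and 1.2%), and the mean of CCI exceeded that of sham by 1.60 points (exact permutation p = 0.667). Of all deposited cells, members were 0.398%, 0.174%, 0.647%, and 0.272%. Without the UMI limit, cells with at least 3 marker genes were 0.747%, 0.366%, 1.33%, and 0.772% of cells, and both CCI libraries then exceeded both sham libraries (exact permutation p = 0.333, the smallest possible).

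The second comparison asked which transcripts of the members differed between CCI and sham. UMIs were summed over the members of each library, and the quasi-likelihood test of edgeR set the 2 sums from CCI against the 2 from sham, the sexes standing in as replicates. The p-values therefore cover the spread between these pooled libraries only. Of 1541 genes tested, leaving out the 7 rule genes, 237 were called at an adjusted p under 0.05 and an absolute log2 change above 0.5 (15.4% of the genes tested), 114 higher (7.4%) and 123 lower (7.98%) in CCI. Markers of macrophages and of antigen presentation by MHC class I were among the higher, and neuronal and Schwann cell markers among the lower. The median log2 change of all genes tested was -0.04.

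The count moved widely with the cells used. Without Male-CCI, where the lone Female-CCI library is taken to vary like the others, 14 genes were called, and with a UMI limit of 10000 edgeR called 0 of 959 genes (197 at an unadjusted p under 0.05). DESeq2 called 63 of 1541 genes, 40 higher and 23 lower. When the summed UMIs of 16 macrophage identity genes (441, 227, 1561, and 510 UMIs) served as library size, the median log2 change of all genes tested moved from -0.04 to -1.92, with 9 genes higher (0.584%) and 919 lower (59.6%) in CCI. Changes below are relative to the total RNA of the members, and the median of a list under this second scaling is given as its identity-scaled median.

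Of 16 macrophage identity genes, all tested, 10 rose, 0 fell, and 6 did not pass the test, with a median log2 change of 1.81 (identity-scaled -0.06, by construction near 0). *Aif1* stood at 138, 207, 1117, and 824 CPM, and rose by 2.64 ± 0.41 on the log2 scale (SE, adjusted p = 0.0104). *Cd52*, a small surface glycoprotein of leukocytes, stood at 296, 375, 1768, and 1853 CPM and rose by 2.55 ± 0.30 (adjusted p = 0.00509). In both genes the CCI libraries lay well above the sham libraries, with no overlap, which was so for 61% of all genes tested. Neither call held among members without a *Fabp7* UMI (*Aif1* 0.91, adjusted p = 0.589, and *Cd52* 0.46, adjusted p = 0.602) or among members without a *Tubb3* UMI (1.81, adjusted p = 0.106, and 1.06, adjusted p = 0.195), and scaled to macrophage identity they were at 0.68 each (adjusted p = 0.446 and 0.393).

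*Cx3cr1*, the receptor of the neuronal chemokine fractalkine, stood at 177, 129, 836, and 505 CPM (log2 change 2.25 ± 0.46, adjusted p = 0.0181). *Ctss*, the secreted protease cathepsin S, stood at 611, 427, 3236, and 1310 CPM (2.27 ± 0.44, adjusted p = 0.0153). *Laptm5*, *Lgmn*, *Coro1a*, *Mpeg1*, and *Cd53* rose by 1.57 to 2.06. *Csf1r*, at 542, 310, 894, and 562 CPM, did not pass the test (0.90 ± 0.43, adjusted p = 0.166), nor did *Spi1*, *Adgre1*, or *Cd68*.

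In the same sums the macrophage genes that passed the test rose and the neuronal genes that passed it fell. When each member counted equally, the macrophage identity list had a mean of 8467, 5754, 14328, and 10038 CPM, and the neuron list 3515, 4214, 2360, and 3770 CPM. Weighted so, the CCI libraries still lay above the sham libraries for macrophage identity, whereas the neuron list overlapped. Among the 67 members with *Fabp7* under 0.5% of UMIs, the summed macrophage identity level was 5738, 3015, 15168, and 10476 CPM, and 140 of 847 genes were called. Among members without any *Fabp7* UMI edgeR called 0 of 292 genes (30 at an unadjusted p under 0.05), with *Cx3cr1* at 1.33 (adjusted p = 0.44) and *Csf1r* at -0.27 (adjusted p = 0.877). Among members without a *Tubb3* UMI 34 of 407 genes were called, 2 higher and 32 lower, and *Csf1r* was at -0.03 (adjusted p = 0.993).

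Receptors that signal through the adaptors of the rule rose in part. Of 12 Fc and ITAM signalling genes 5 were tested, 2 rose, and 0 fell (median 1.72, identity-scaled -0.13). *Trem2*, a Tyrobp-coupled lipid receptor, stood at 158, 51.7, 806, and 693 CPM and rose by 2.89 ± 0.52 (adjusted p = 0.011), and it was found in 12 sham and 30 CCI members. *Fcgr1*, the high-affinity IgG receptor, rose by 1.72 ± 0.49 (adjusted p = 0.0436). *Fcgr3*, at 187, 181, 437, and 187 CPM, overlapped between groups. Of 15 cytokine and damage receptor genes 6 were tested and 2 rose (median 1.56, identity-scaled -0.23), *Cx3cr1* and *Cd14*, the co-receptor for bacterial lipopolysaccharide, at 108, 103, 379, and 318 CPM (1.84 ± 0.49, adjusted p = 0.0378). Of 10 complement genes beside C1q only *C3ar1*, a receptor of complement fragment C3a, was tested, and it did not pass (1.32 ± 0.60, adjusted p = 0.151).

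MHC class I, which presents peptides from inside the cell, rose in most genes tested. Of 9 MHC class I genes 6 were tested and 5 rose (median 1.46, identity-scaled -0.43). *B2m*, the light chain of all class I molecules, stood at 473, 698, 1846, and 1572 CPM and rose by 1.68 ± 0.31 (adjusted p = 0.0119). *Psmb9*, an immunoproteasome subunit, stood at 29.6, 51.7, 194, and 393 CPM and rose by 2.89 ± 0.60 (adjusted p = 0.0195). The heavy chains *H2-K1* and *H2-D1*, near copies whose reads can be shared, rose by 1.27 ± 0.30 and 1.24 ± 0.27.

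Of 7 MHC class II genes 6 were tested and 1, *H2-Ab1*, rose (median 1.02, identity-scaled -0.68), from 2436 and 1293 CPM in sham to 3508 and 3969 CPM in CCI (1.11 ± 0.32, adjusted p = 0.0436). This call was lost with at least 4 marker genes (0.65, adjusted p = 0.197), with at most 5% mitochondrial UMIs (1.31, adjusted p = 0.12), and by DESeq2 (adjusted p = 0.136), and *H2-Ab1* was below 0 without *Tubb3* or *Fabp7* members (-0.66 and -0.90). *Cd74*, the class II invariant chain and the most abundant of the list, stood at 8717, 3983, 9027, and 9940 CPM and did not pass (0.69 ± 0.33, adjusted p = 0.178). Single members ranged widely, from 0% to 9.94% of UMIs for the 7 class II genes, and 10 of 20, 7 of 14, 10 of 26, and 9 of 18 members were at 1% or more. With each member counted equally, class II stood at 30484, 15896, 24260, and 19650 CPM, so CCI and sham overlapped.

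The interferon response list had 13 genes, of which 6 were tested, 2 rose, and 0 fell (median 1.25, identity-scaled -0.81). *Ifi27l2a* stood at 493, 491, 1768, and 1404 CPM, was found in 20 sham and 36 CCI members, and rose by 1.82 ± 0.30 (adjusted p = 0.0104). *Irf7*, a transcription factor of the interferon response, was found in 3 sham and 11 CCI members and stood at 0, 77.6, 321, and 262 CPM (3.17 ± 0.81, adjusted p = 0.0346). *Bst2* and *Isg15* did not pass the test. In SGC-like cells the summed list stood at 806, 985, 2634, and 1491 CPM, and 3 of its genes rose there.

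Of 21 cytokine and chemokine genes 10 were tested, 4 rose, and 0 fell (median 1.53, identity-scaled -0.24). *Il1b*, the inflammatory cytokine interleukin 1 beta, had 2, 3, 35, and 13 UMIs in 2, 2, 5, and 3 members (3.46 ± 0.60, adjusted p = 0.0108). *Cxcl16*, a membrane-bound chemokine, stood at 118, 116, 389, and 468 CPM and rose by 1.96 ± 0.48 (adjusted p = 0.0312). *Ccl12* and *Ccl2*, ligands of Ccr2, did not pass, at 513, 918, 389, and 618 CPM and at 108, 155, 97.2, and 449 CPM.

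The largest rises were those of genes with few sham UMIs. Genes of this kind with the same direction in both sexes were *Cxcl9*, *AA467197*, *Ccl22*, *Cxcl2*, *Ccl8*, *AW112010*, *Ccl5*, *Bcl2a1b*, *Bcl2a1d*, and *Cd72*, all with an adjusted p of 0.0104 to 0.0147. *Cxcl2*, a chemokine that attracts neutrophils, had 0, 1, 98, and 13 UMIs in 5 members, and 1 Male-CCI member gave 52. The ratio of CCI to sham was 127 (exact counting interval 22.3 to 5057). *Ccl8*, a chemokine for monocytes and T cells, had 1, 1, 29, and 57 UMIs, in 2 sham and 10 CCI members, and 1 member gave 39 (ratio 49.2, 13.2 to 412).

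Within the members, chemokines of dendritic cells and T cells came mostly from the single cells named above. All 66 UMIs of *Cxcl9*, a chemokine for activated T cells, came from the 2 CCI members with *Clec9a* and *Xcr1*, which held 27 and 39. All 35 UMIs of *AA467197* came from the same pair (29 and 6), as did 31 of 32 UMIs of *Ccl22*, a chemokine of mature dendritic cells (23 and 8). *Ccl5* had 51 UMIs in CCI, of which 25 lay in the member with T and NK cell genes and 16 in the Male-CCI member with *Clec9a*. With at least 4 marker genes required, which leaves these members out, *Cxcl9*, *AA467197*, *Ccl22*, and *Ccl5* had too few counts to be tested. Outside the members, SGC-like cells held *Cxcl9* at 0, 0, 107, and 0 CPM and *Ccl5* at 0, 0.727, 155, and 2.7 CPM. Such transcripts in Male-CCI were thus not limited to the members.

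Rises shared by more members were those of *AW112010*, *Bcl2a1b*, and *Cd72*. *Bcl2a1b*, a copy of the survival gene family Bcl2a1, was found in 3 sham and 21 CCI members and stood at 9.86, 38.8, 379, and 337 CPM (log2 change 4.03 ± 0.66). *Bcl2a1d* is a near-identical copy, so the split of reads between them is uncertain. *AW112010*, a transcript of activated leukocytes, was found in 2 sham and 18 CCI members (ratio 32.6, 8.62 to 276). Of its 57 CCI UMIs, 22 lay in 1 member. *Cd72*, an inhibitory lectin, was found in 3 sham and 15 CCI members (ratio 13, 4.07 to 65.9).

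Lysosomal genes were 12, all tested, of which 4 rose, 0 fell, and 8 did not pass (median 1.13, identity-scaled -0.68). With each member counted equally, the list stood at 8085, 6136, 12503, and 7959 CPM, so CCI and sham overlapped. Single members ranged from 0% to 5.76% of UMIs for these genes, the highest in Male-CCI. *Ctsd*, the protease cathepsin D, stood at 404, 349, 2915, and 749 CPM (2.44 ± 0.55, adjusted p = 0.0257), with Male-CCI far above Female-CCI. *Npc2*, a lysosomal cholesterol carrier, stood at 345, 349, 1098, and 1030 CPM (1.74 ± 0.34, adjusted p = 0.0153). *Ctsz* and *Grn* rose by 1.65 and 1.67. Of 15 lipid and repair genes 8 were tested and 2 rose (median 0.99, identity-scaled -0.86), *Trem2* and *Lgals3* (2.1 ± 0.53, adjusted p = 0.034). *Lgals3*, which encodes a galectin, was found in 9 sham and 12 CCI members, a similar share of the members of each group. *Spp1*, which encodes osteopontin, had 1, 1, 48, and 2 UMIs and was not tested, and *Arg1* had none.

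**Figure D3:**
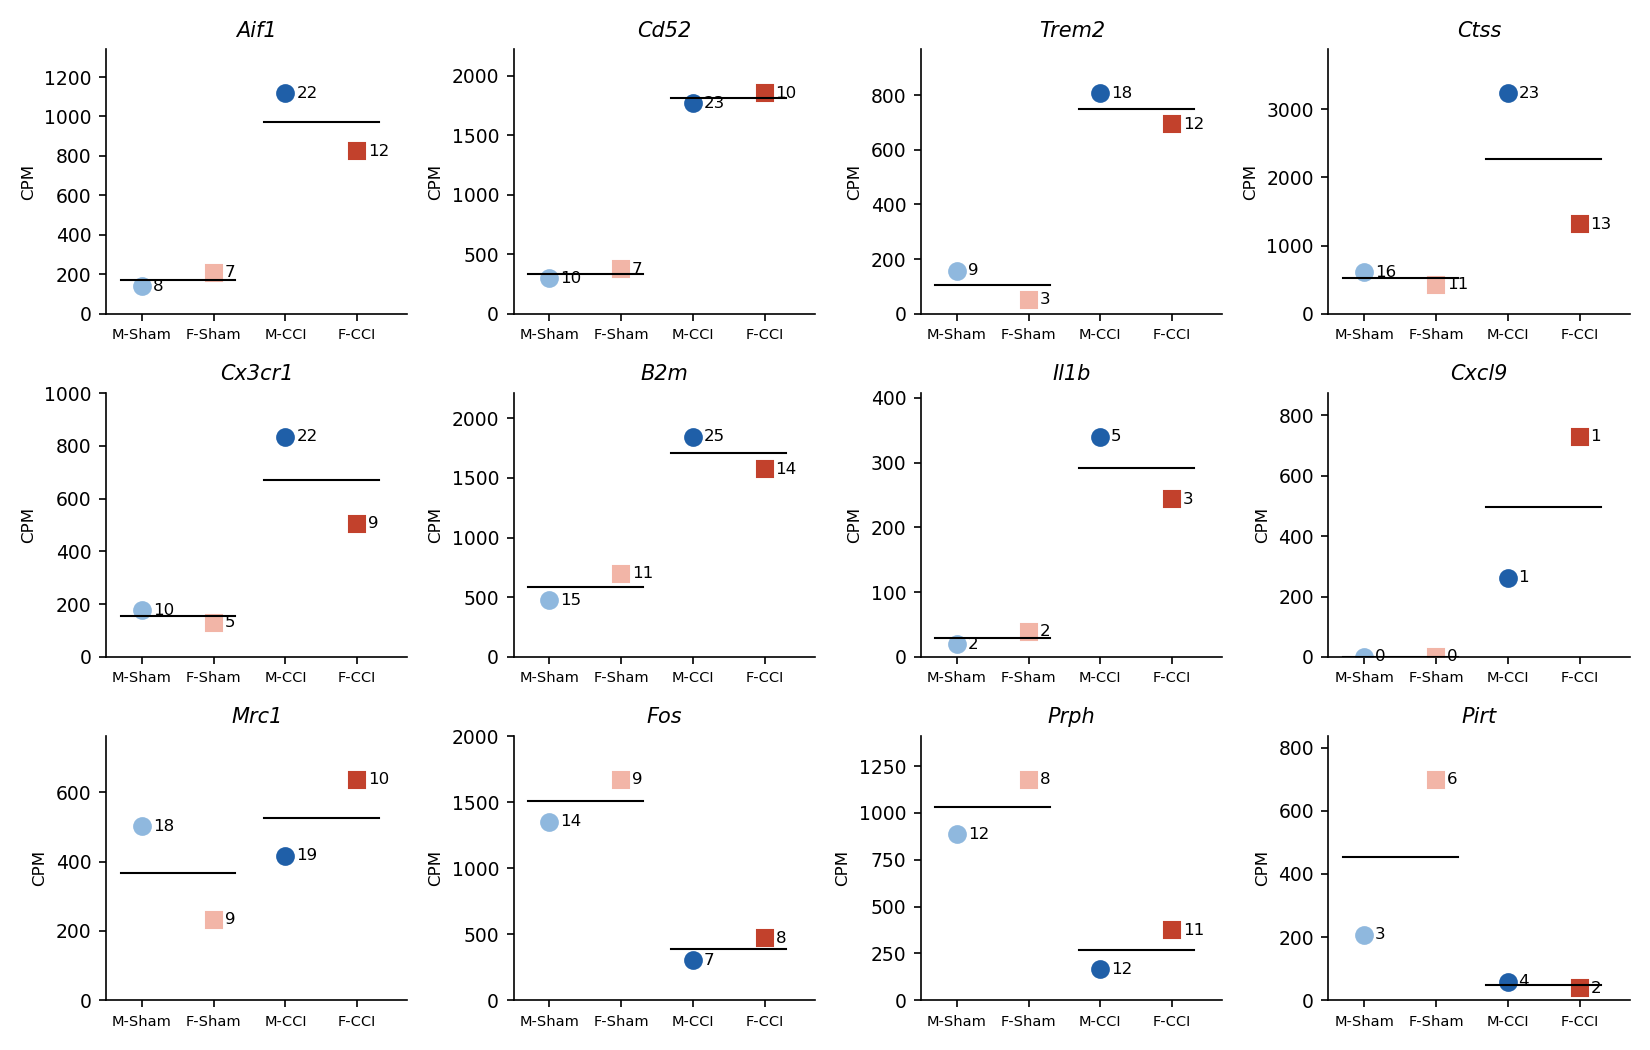
CPM of 12 genes in the summed members of each library (circles male, squares female, sham pale, CCI dark), with the number of members that held a UMI beside each point and the mean of the 2 libraries of a surgery as a line. *Aif1* to *Cxcl9* are higher and *Fos*, *Prph*, and *Pirt* lower in CCI, *Mrc1* overlaps, and *Cxcl9* comes from 1 member in each CCI library. Levels are per total UMIs of the members, and scaled to macrophage identity genes *B2m* and *Mrc1* are lower in CCI (-0.26 and -1.09, neither passing the test).

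Genes of resident macrophages were tested in 7 of 12 cases, and 0 were called by edgeR (median 0.75, identity-scaled -1.09). *Mrc1* stood at 503, 233, 418, and 636 CPM (0.58 ± 0.46, adjusted p = 0.405) and *Pf4* at 1469, 1216, 1671, and 955 CPM (0.11 ± 0.33, adjusted p = 0.863). Both overlapped between CCI and sham. Of 11 monocyte genes only *S100a6* was tested, which fell by 1.07 ± 0.31 (adjusted p = 0.0437) from 2988 and 3285 CPM to 962 and 1835 CPM. This gene of a calcium-binding protein stood at 4079 to 5663 CPM in neurons. Of 9 B cell genes 2 were tested, and *Ebf1*, a factor of B cell development that stood at 446 to 595 CPM in neurons, fell, while *Ighm* did not pass.

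Some neuronal and Schwann cell markers were lower in CCI members. Of 9 neuron genes 7 were tested, 4 fell, and 0 rose (median -1.77). *Prph*, an intermediate filament of unmyelinated sensory neurons, stood at 887, 1177, 165, and 374 CPM (-1.89 ± 0.43, adjusted p = 0.0273). *Pirt* had 21, 54, 6, and 2 UMIs (-2.97 ± 0.74, adjusted p = 0.0323), and *Nefl* and *Snap25* also fell. *Tubb3* did not pass (-0.58 ± 0.57, adjusted p = 0.517), and it was above 0 with a UMI limit of 10000 (0.23, adjusted p = 0.861). In neurons of the same libraries *Prph* stood at 3104, 3300, 2757, and 3083 CPM. Of 8 genes of neuronal signals to macrophages 3 were tested and 0 were called by edgeR. Among them *Calca*, which encodes the neuropeptide CGRP, had 30, 393, 22, and 19 UMIs, of which 236 lay in 1 member (-3.14 ± 1.73, adjusted p = 0.339).

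Of 8 Schwann cell genes 3 were tested and 2 fell. One of them, *Pmp22*, a membrane protein of myelin, stood at 503, 375, 136, and 112 CPM (-1.67 ± 0.49, adjusted p = 0.0466). Of 9 satellite glia genes 6 were tested and 0 were called (median -1.06). *Fabp7* had a wide error (-2.45 ± 1.45, adjusted p = 0.364), and it passed the test with at most 5% mitochondrial UMIs (-5.11, adjusted p = 7.7e-05) and among members without *Tubb3* (-6.67, adjusted p = 0.0066).

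The largest falls with the same direction in both sexes were those of *6330403K07Rik*, *Sqle*, *Fgf13*, *Bex1*, *Pcp4*, *Epas1*, *Prdm12*, *Acsbg1*, *Elovl5*, and *Ebf1*, each with 1 to 4 UMIs in all CCI members together. *Fgf13*, which binds sodium channels, had 103 sham and 3 CCI UMIs (ratio 0.0333, 0.00676 to 0.10) and stood at 479 to 936 CPM in neurons. *Pcp4*, a calmodulin regulator of neurons, had 120 and 4 UMIs, 81 of them in 1 sham member. *Acsbg1*, an acyl-CoA synthetase, had 31 and 1 UMIs (ratio 0.0369, 0.000905 to 0.221) and stood at 387 to 551 CPM in SGC-like cells but 9.85 to 19.6 CPM in neurons. *Epas1* likewise stood higher in SGC-like cells (374 to 426 CPM) than in neurons (18.0 to 22.2 CPM). These 10 genes thus included transcripts of both neighbouring cell types.

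Immediate early genes, which rise with tissue dissociation, were 11, all tested, of which *Fos* alone fell, 0 rose, and 10 did not pass (median -0.38). *Fos* stood at 1351, 1668, 301, and 468 CPM (-1.88 ± 0.33, adjusted p = 0.011) and was found in 23 of 34 sham and 15 of 44 CCI members. *Hspa1a*, a heat shock gene whose copy *Hspa1b* can share its reads, stood at 2278, 918, 1458, and 1254 CPM and overlapped. *Jun* stood at 947, 1177, 923, and 636 CPM (-0.30 ± 0.32, adjusted p = 0.564).

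*Sprr1a*, which injured sensory neurons switch on, had 0, 0, 10, and 25 UMIs in members, found in 8 Male-CCI and 5 Female-CCI members, and was too sparse to be tested. Against the floor of 3 UMIs over the sham members it was at least 13.3-fold higher in CCI. In neurons under the same filter it stood at 49.2, 94.6, 2084, and 1217 CPM, and in SGC-like cells at 2.38, 2.91, 49.1, and 76.9 CPM, so each of the 3 populations held more of it in CCI. *Atf3* and *Gal*, also genes of injured neurons, did not pass the test in members (-0.19 ± 0.50, adjusted p = 0.845, and 0.39 ± 0.63, adjusted p = 0.713).

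**Figure D4:**
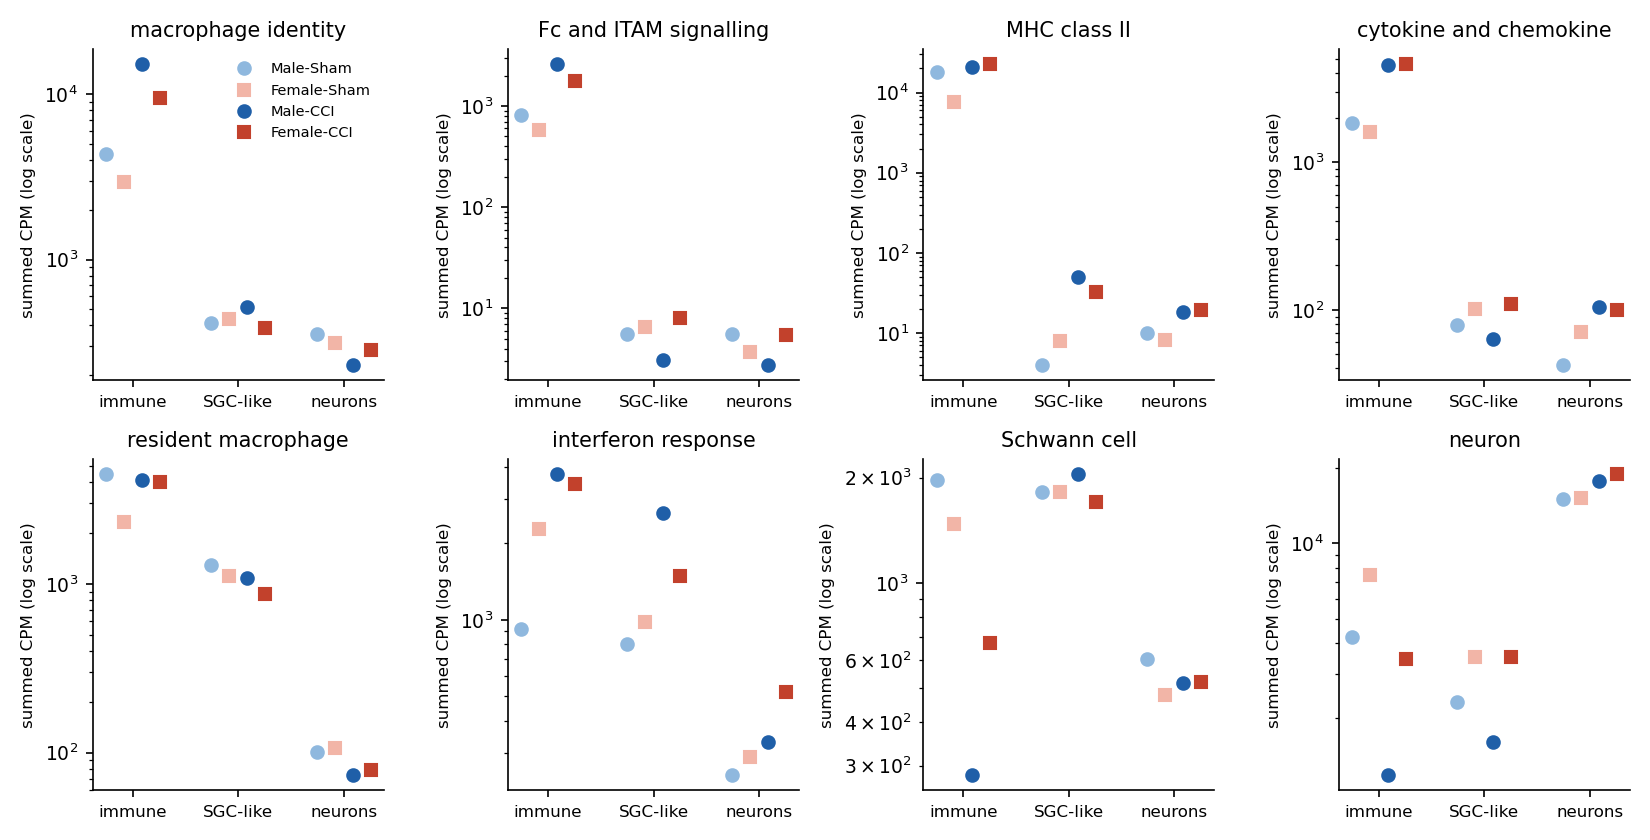
Summed CPM (log scale) of 8 gene lists in members, SGC-like cells, and neurons of each library (circles male, squares female, sham pale, CCI dark). The macrophage identity, Fc and ITAM, MHC class II, and cytokine lists are far higher in members than in the other cells, whereas the Schwann cell and neuron lists in CCI members lie below those in the sham members.

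The scaling of the sums changed the direction of many genes. The 9 genes that stayed higher in CCI when scaled to macrophage identity genes were *Cxcl9*, *AA467197*, *Ccl22*, *Cxcl2*, *Ccl8*, *AW112010*, *Ccl5*, *Bcl2a1b*, and *Bcl2a1d*. *Trem2* (1.15, adjusted p = 0.209), *Il1b* (1.57, adjusted p = 0.11), and *Psmb9* (1.17, adjusted p = 0.2) stayed above 0 but did not pass. *B2m* (-0.26), *Ifi27l2a* (-0.09), and *Npc2* (-0.13) were then below 0, so their rise in CCI was relative to the total RNA of the members and not to their macrophage identity RNA. In neuron, Schwann cell, and satellite glia lists the identity-scaled medians were -3.67, -3.56, and -2.72. With this scaling *Apoe* and *Pf4* passed the test as lower in CCI (-1.43, adjusted p = 0.00458, and -1.83, adjusted p = 0.0113).

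**Figure D5:**
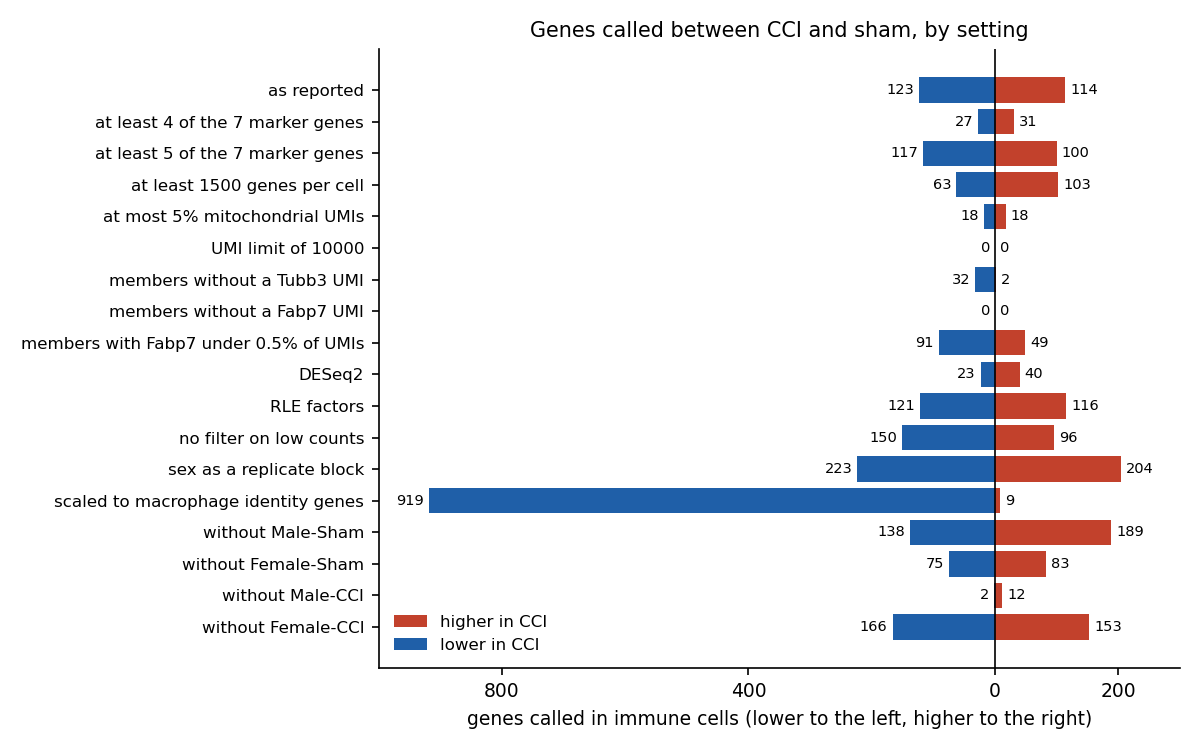
Number of genes called between CCI and sham in members, higher in CCI to the right and lower to the left, as reported (114 and 123) and under each alternative. The counts fall to 0 with a UMI limit of 10000 and among members without a *Fabp7* UMI, and 919 of 928 calls are lower in CCI when the sums are scaled to macrophage identity genes.

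The last comparison asked whether the change of a gene after CCI differed between the members and the other sorted cells of the same libraries. Against SGC-like cells, in a fit with the library as a term, the change differed for 145 of 6892 genes (2.1%), more positive in members for 35 (0.508%) and more negative for 110 (1.6%), with a median difference of -0.20 over all genes. With RLE factors in place of TMM the split was 58 and 94. The macrophage identity genes *Coro1a* (difference of log2 changes 2.79 ± 0.62, adjusted p = 0.00168) and *Lgmn* (1.67 ± 0.41, adjusted p = 0.00684) were among the 35, as were *Ctsd* (2.25 ± 0.40), *Npc2* (1.78 ± 0.40), and *Ctsz* (1.52 ± 0.40) of the lysosome list. *Trem2* and *Cd52* were in this fit, but their counts near 0 in SGC-like cells gave errors too large to read a difference (adjusted p = 1 for both). Among the 110 were *Fos* (-1.52, adjusted p = 0.00741) and *Pirt* (-2.09, adjusted p = 0.0374). *Cd74* was another (-3.31 ± 0.74, adjusted p = 0.00177), as its log2 change in SGC-like cells was 4.22 (adjusted p = 0.0502) at levels far below those of members.

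In SGC-like cells alone 19 of 8864 genes were called (0.214%), 16 higher (0.181%) and 3 lower (0.0338%), and *Fos* (-0.34, adjusted p = 0.555) was not among them. Against neurons, the change differed for 114 of 11677 genes (0.976%), more positive in members for 15 (0.128%) and more negative for 99 (0.848%), with a median difference of -0.29 over all genes. With RLE factors the split was 27 and 81. In neurons alone 1412 of 12708 genes were called (11.1%), 921 higher (7.25%) and 491 lower (3.86%). *Aif1* (2.72, adjusted p = 0.00763), *Ifi27l2a* (2.15, adjusted p = 0.00103), and *Npc2* (1.73, adjusted p = 0.025) were among the 15. *Ifi27l2a* was the only one of 13 interferon response genes called there, 6 of the 13 differences were positive, and their median was -0.39. Against SGC-like cells the median of the 11 interferon genes tested was -0.10, and 1, *Ifit1*, was called, as more negative (-3.48, adjusted p = 0.0027). In neurons alone 6 interferon genes rose. Of the 16 macrophage identity genes, some with errors as large as that of *Cd52*, the difference was positive and called for 3 against SGC-like cells and for 4 against neurons, and negative and called for 0 in either edgeR fit. Of the 9 neuron genes it was negative and called for 3 and for 5. DESeq2, which gave an adjusted p for 1142 and 1032 genes in these comparisons, called 12 and 22, and without Male-CCI edgeR called 10 and 5.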

How the data were processed

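The authors processed the 10x Genomics 3′ v3 reads with Cell Ranger on mm10 and deposited raw UMI counts of 31053 genes per called cell. The submitters' processing notes name Cell Ranger 2.1.1 and the matrix header 3.0.2. The study removed doublets with Scrublet and cells under 1500 genes. Here no doublet caller was run, since the limit of 20000 UMIs and the counts of *Fabp7* and *Tubb3* describe mixed cells, and cells under 1500 genes were kept (32 of 78 members pass that limit).

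The members and gene lists were chosen with earlier results of these data known. UMI counts were summed per library over members, SGC-like cells, or neurons and compared with edgeR 4.0.16 (robust quasi-likelihood test, TMM, filterByExpr with a minimum count of 10, R 4.3.3, limma 3.58.1). Adjusted p-values are Benjamini-Hochberg values over all genes tested. Genes at 0 in a group are compared with a floor of 3 UMIs over the group, which is 16.8 CPM in sham and 19.2 CPM in CCI, or 29.2 to 56.2 CPM in a single library. Groups came from the treatment label of each sample, and nothing in the labels pairs a sham with a CCI library beyond sex. Genes were named by rule: the 7 rule genes, up to 4 genes of highest mean CPM in each list, the 10 largest rises and falls called with the same direction in both sexes, and *Apoe*, *Fabp7*, *Tubb3*, *Pirt*, *Sprr1a*, *Atf3*, and *Gal*. Others, such as list genes at 0 and the single cells, were named after their values were seen. Of 292 list entries 290 were in the matrix. A few genes that the rule names are not reported here. No gene could be tested in the T and NK cell, dendritic cell, mast cell, neutrophil, endothelial, fibroblast, mural cell, cell cycle, and erythrocyte lists.

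Alternatives were DESeq2 1.42.0, RLE factors, no filter on low counts, other limits on marker genes, genes, mitochondrial UMIs, and total UMIs, members without *Tubb3* or *Fabp7*, cells thinned to 1000 UMIs, sex as a block, and leaving out each library. Members with *Fabp7* under 0.5%, scaling to macrophage identity genes, and all deposited cells as denominator were added after the data were seen. The edgeR and DESeq2 fits of CCI against sham and of the difference between cell populations were tried on simulated data. The exact tests and intervals were not. Exact tests, counts of cells, and plots were made in Python 3.11.15 with scipy 1.17.1, numpy 2.4.6, pandas 2.3.3, and matplotlib 3.10.9.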

Additional observations from a re-analysis of the deposited data

Results flagged for a closer look

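The summed levels of 3 lists in members moved in opposite directions in male and in female libraries, with 1 library per sex and surgery, so the difference between the sexes was not tested. The resident macrophage list changed by -0.11 (log2 of CCI over sham CPM) in male and by 0.80 in female libraries, at 4477, 2315, 4149, and 4025 CPM. The satellite glia list, mostly *Apoe*, changed by -0.45 in male and 0.64 in female libraries, and the injured neuron list by -0.04 and 0.82. With each member counted equally, resident macrophage genes stood at 7645, 4865, 4598, and 5528 CPM, satellite glia genes at 71309, 59891, 54373, and 59588 CPM, and injured neuron genes at 460, 622, 673, and 1594 CPM, so that injured neuron genes were then higher in CCI in both sexes and satellite glia genes in neither. In the first 2 lists Female-Sham, where 3 deep members gave 57.7% of UMIs, had the lowest level.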

How the results depend on the processing

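Except on leaving out a library, the mean share in CCI exceeded that in sham by 0.173 to 3.54 percentage points. Leaving out a library gave -0.355 to 3.02 points, below 0 without Male-CCI. Female-CCI was below Female-Sham with at most 5% mitochondrial UMIs (0.586% against 0.879%) and with *Tubb3* cells left out (1.97% against 2.37%). It was above Female-Sham in the other settings that held both. The 237 genes called between CCI and sham became 58 with at least 4 marker genes, 36 with at most 5% mitochondrial UMIs, 34 without members that held *Tubb3* (2 higher and 32 lower), 140 with *Fabp7* under 0.5%, 63 by DESeq2, and 928 when scaled to macrophage identity genes. With a UMI limit of 10000, and without members that held *Fabp7*, edgeR called 0 genes (197 of 959 and 30 of 292 at an unadjusted p under 0.05; fewer members and genes were tested, and DESeq2 was not run there). Leaving out a library gave 14 to 327 genes, the lowest without Male-CCI. With sex as a replicate block 427 were called, *Fabp7* (-3.11), *Csf1r* (0.90), and *Cd74* (0.80) among them (adjusted p = 5.6e-18, 0.048, and 0.0061). The labels pair libraries by sex only, and deviations of the male libraries correlated by 0.115 over 1548 genes (2 pairs), so sex was not taken to pair them.

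The difference from SGC-like cells moved from 145 genes to 92 without the filter on low counts, 12 by DESeq2 (of 1142 genes with an adjusted p), 18 without *Tubb3*, 30 without the replicate block of library, and 10 to 88 leaving out a library. The difference from neurons moved from 114 to 22 by DESeq2 (of 1032), 3 without *Tubb3*, 341 without that block, and 5 to 159 leaving out a library. Scaled to macrophage identity, *Apoe* (-1.43), *Pf4* (-1.83), and *H2-Ab1* (-0.64) changed sign with a call in 1 of the 2 fits, and *H2-Ab1* did so without *Tubb3* (-0.66) and without *Fabp7* (-0.90). Under this scaling *B2m* (-0.26), *Ifi27l2a* (-0.09), and *Npc2* (-0.13) also went below 0, as did *Csf1r* (-0.97), *Mrc1* (-1.09), and *Cd74* (-1.04), which passed the test in neither fit. The causes were not tested. Sums of 53420 to 102915 UMIs left 1541 genes deep enough to test.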
